A study of Mus musculus with 4 samples.

Results

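Metallothioneins and zinc transporters were followed in the gastrocnemius muscle of mice that differed in exercise and in tumor burden. The group held 8 genes, Mt1, Mt2, Mt3, Mtf1, Slc39a14, Slc39a10, Slc30a1 and Slc30a2, of 23282 gene rows in the files, and all 8 were found by their symbols. They were chosen by gene name after earlier results on these libraries had shown a very large rise of Mt2 with the tumor, so the size of that rise is given as a description and supports nothing further. RNA was profiled by QuantSeq 3′ mRNA sequencing, which reads the end of each polyadenylated transcript, so that long and short genes are read alike. There was 1 library for each of 4 groups, namely normal control with neither exercise nor tumor (E-T-), normal exercise with exercise only (E+T-), cancer control with tumor only (E-T+) and cancer exercise with both (E+T+).

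All mice were male CDF1 hybrids, a cross of the BALB/c and DBA/2 strains, and the labels give postnatal day 28 for each group, the age at which the methods say the mice were obtained. The exercised groups ran on a motorized treadmill at high intensity, and the tumor groups received CT26 mouse colorectal cancer cells through the tail vein. The results text of the study describes a representative mouse per group for sequencing, while the series design describes several mice per group. Whether a library holds 1 animal was therefore not settled. Because each group had 1 library, no difference below has a replicate check, no p-value is given, and the 95% counting intervals cover the sampling of reads only and not the spread between animals.

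Total reads, rebuilt from the deposited values, ranged from 10647537 in cancer control to 13225927 in normal exercise. All 12 muscle fibre markers, among them Acta1, Ckm and Myh4, had reads in every library and together took 91163 to 121413 RPM, that is, reads scaled to a common library total. The libraries also differed in markers of other cells. In the order normal control, normal exercise, then the tumor libraries without and with exercise, the 9 fibroblast markers took 8291, 4561, 3378 and 3348 RPM and the 7 red cell markers 20775, 4804, 20631 and 42256 RPM. The 9 epithelial and carcinoma markers took 104, 40.5, 29.2 and 102 RPM in that order, with Cdx2 at 0 reads in all libraries and Epcam at no more than 1. Most of these reads came from Tspan8, with 1096, 478, 199 and 1075, so the sum mainly follows that gene. Cdh1 (51, 20, 67 and 9 reads) and Krt8 (5, 0, 12 and 0) were highest in cancer control, while Krt19 (10, 18, 7 and 34) was lowest there. The part of these cells in the results was not tested, and markers of other cells are given beside some of the results only. A gene was called when its normalized read count differed by 2-fold or more between 2 libraries and was 4 or more in 1 of them or both.

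Metallothioneins are small proteins rich in cysteine that bind zinc and copper ions and buffer their free level in the cell. The transcription factor MTF1 senses free zinc and switches on metallothionein genes and the zinc exporter gene Slc30a1 through short DNA motifs called metal response elements, and metallothionein genes are also known to respond to glucocorticoids and to inflammatory cytokines such as IL-6. Transporters of the Slc39a (ZIP) family carry zinc into the cytosol, and those of the Slc30a (ZnT) family carry it out of the cytosol or into vesicles. Slc39a14 is a cytokine-inducible importer that has been linked to muscle wasting in mice with metastatic cancer.

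The coding sequences of Mt1 and Mt2 are shown because both genes moved together and reads of close relatives can be confused. They are the GENCODE M21 transcripts Mt1-201 and Mt2-201 (mm10, the build named in the submitters' processing notes), 5′ to 3′ from the start codon, with every cysteine codon in capitals.
Mt1 coding sequence: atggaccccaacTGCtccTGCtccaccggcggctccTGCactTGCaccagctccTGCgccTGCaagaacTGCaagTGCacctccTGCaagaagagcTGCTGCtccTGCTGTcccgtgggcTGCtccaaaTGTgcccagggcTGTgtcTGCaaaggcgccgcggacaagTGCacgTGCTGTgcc
Mt2 coding sequence: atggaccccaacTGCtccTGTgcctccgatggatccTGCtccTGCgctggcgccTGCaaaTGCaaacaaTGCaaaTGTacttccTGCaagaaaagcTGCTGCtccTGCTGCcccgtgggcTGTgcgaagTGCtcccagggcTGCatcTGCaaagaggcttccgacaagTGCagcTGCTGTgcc
Both have 61 codons, of which 20 encode cysteine at the same 20 places, and 145 of 183 bases (79.2%) were identical. The longest stretch shared by the 2 transcripts was 20 bases. In the last 300 bases of either transcript, where 3′ reads fall, no stretch of 40 bases was found in the same orientation in an annotated transcript of another gene. Matches in the opposite orientation were not searched, so overlap with an antisense gene, as given below for Mt2, could not be found in this way. Mt3 and Mt4 also had 20 cysteine codons each, of 68 and 62 codons. The 4 genes lie in a cluster of 43131 bases on the same strand of chromosome 8, with Mt2 at chr8:94172664-94173568 and Mt1 at chr8:94179082-94180327 (GENCODE M21, mm10), each with 3 exons.

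Mt1 and Mt2, the metallothioneins that most tissues express, were among the genes of this group with the highest levels in every library, Mt2 standing below Mtf1 only in normal exercise. The normalized read count of Mt1 was 1293 in normal control against 1383 with exercise, and 151924 in cancer control against 94759.6 with exercise. That of Mt2 was 727 against 731 without a tumor, and 101914 against 71814 with one. Both tumor libraries lay far above both libraries without a tumor, while the 2 libraries without a tumor lay close together.

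Mt1 was thus higher in cancer control by 6.88 in log2 units than in normal control (counting interval 6.80 to 6.96), a 117-fold difference. Mt2 was higher by 7.13 (7.02 to 7.24), a 140-fold difference. In exercised mice the tumor difference was 6.10 for Mt1 (6.03 to 6.17) and 6.62 for Mt2 (6.52 to 6.71). Ranked from the largest rise, Mt2 stood 12th and Mt1 14th of 14818 genes without exercise, and they stood 4th and 6th of 14470 genes with exercise. By level, Mt1 and Mt2 stood at rank 1274 and 2314 of all genes in normal control. In cancer control Mt1 was the 5th and Mt2 the 11th most abundant transcript of the muscle, among contractile genes such as Tnni2, Myh4 and Acta1. In cancer exercise they stood 15th and 16th.

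**Figure D1:**
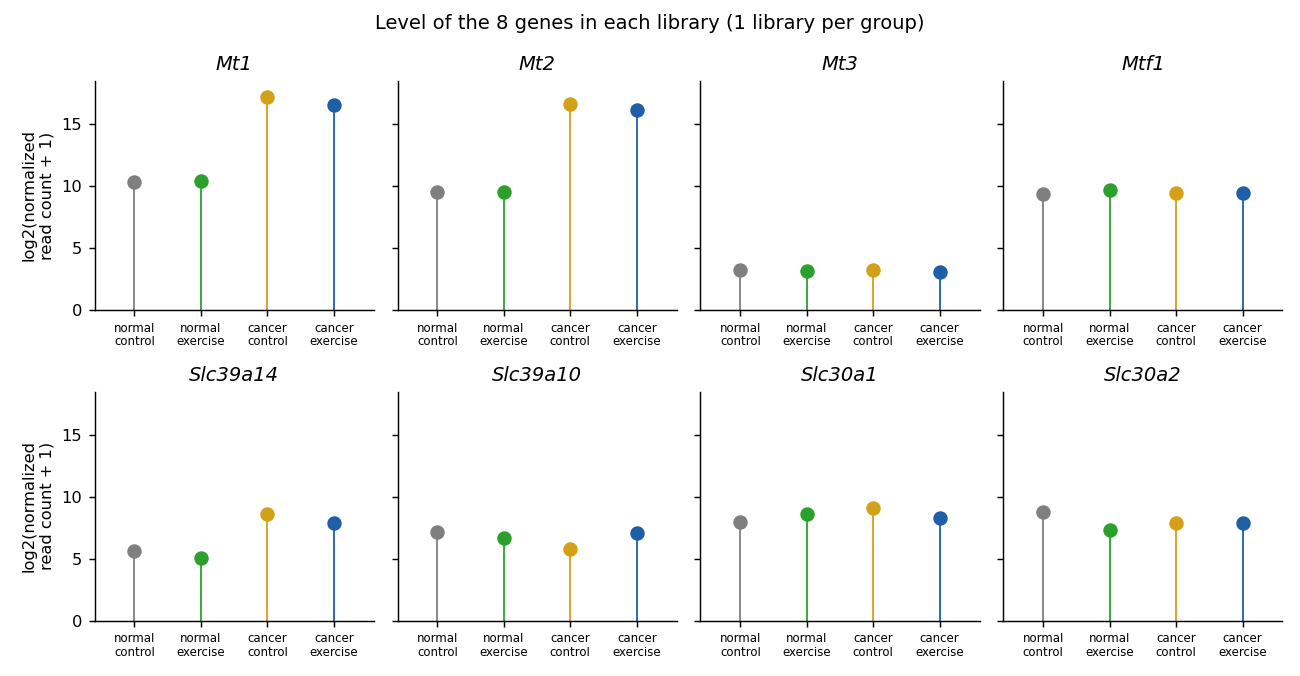
Deposited log2(normalized read count + 1) of each of the 8 genes in the 4 libraries, 1 point per library, on a common vertical axis from 0. Mt1 and Mt2 stand near 10 without a tumor and between 16.1 and 17.2 with one, Slc39a14 is also higher in both tumor libraries, and Mt3 and Mtf1 stay nearly level.

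Of all reads, Mt1 and Mt2 together took 0.0169% in normal control and 0.0197% in normal exercise. In cancer control they took 2.23%, and in cancer exercise 1.40%. The balance between them also shifted. Mt1 gave 64.03% of their summed reads in normal control (exact binomial 95% interval 61.8% to 66.2%) and 65.4% in normal exercise (63.6% to 67.3%), intervals that overlap. It gave 59.9% in cancer control (59.7% to 60.1%) and 56.9% in cancer exercise (56.6% to 57.1%). The intervals of the tumor libraries lay below those of the libraries without a tumor and apart from each other, so that Mt2 made up more of the sum in both tumor libraries. For these large values the rebuilt reads are known only to within about 50 reads for Mt1 and 33 for Mt2.

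**Figure D2:**
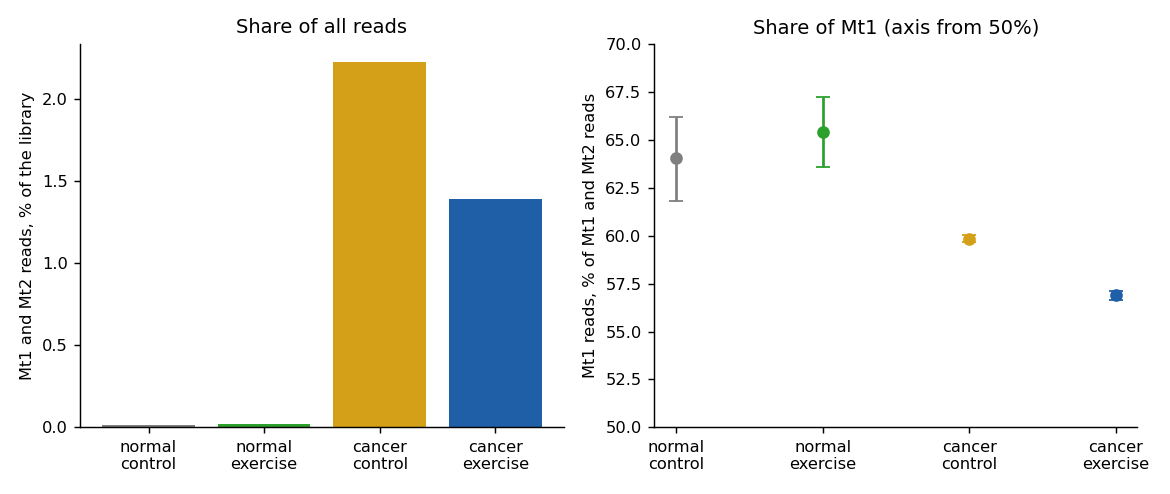
Left, reads of Mt1 and Mt2 together as a percent of all reads in each library (bars from 0). Right, reads of Mt1 as a percent of the sum of Mt1 and Mt2, with exact binomial 95% intervals for counting error, on an axis that starts at 50%; the share falls from 64.03% and 65.4% without a tumor to 59.9% and 56.9% with one.

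Exercise in tumor-free mice left both genes nearly level, with log2 fold changes of 0.10 for Mt1 (-0.01 to 0.21) and 0.01 for Mt2 (-0.14 to 0.16). In tumor-bearing mice both were lower with exercise, at log2 fold changes of -0.68 for Mt1 (-0.69 to -0.67) and -0.51 for Mt2 (-0.52 to -0.49), which is beyond counting error but short of 2-fold. The exercise differences in tumor-bearing mice and the tumor differences in sedentary mice share the cancer control library, and the exercise differences in tumor-free mice and the tumor differences in sedentary mice share the normal control library.

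The other 2 metallothioneins, which are known from more restricted tissues, were scarce. Mt3, best known from brain, had 8 and 10 reads without a tumor and 8 and 7 with one, each pair without and with exercise. Its intervals spanned at least 1.4 on the log2 scale in each direction, so that a 2-fold difference was not detectable at this depth. Mt4, known from stratified squamous epithelium such as skin, had no reads in either library without a tumor, 72 in cancer control and 7 in cancer exercise. With 0 reads set to the floor of 3, it was at least 24.2-fold higher in cancer control than in normal control. The 9 keratinocyte markers took 20.4 and 20.7 RPM without a tumor and 72.7 and 10.3 RPM with one, each pair without and with exercise. None of the 9 was at 0 reads in cancer control, against 4, 4 and 5 in the other libraries, and Krt5 had 20 reads in cancer control and 0 elsewhere. With the tumor 6 of the 9 were called higher and 0 lower in sedentary mice, against 20.85% and 24.2% of all genes. In exercised mice, where Mt4 was at least 3.12-fold higher, 2 were higher and 2 lower, against 13.9% and 16.3%. The part of the keratinocyte markers in the Mt4 result was not tested.

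Mtf1, the zinc sensor, was nearly level at the RNA level. Its normalized read count was 669 in normal control and 820.4 with exercise alone, against 692 with the tumor alone and 694 with both. The log2 fold change was 0.05 with the tumor in sedentary mice (-0.11 to 0.21) and 0.01 with exercise in tumor-bearing mice (-0.15 to 0.16). It was 0.29 with exercise in tumor-free mice (0.15 to 0.44). The 3′ end of Mtf1 is covered on the opposite strand by 1110065P20Rik, with normalized read counts of 462 to 536, and the use of strand in the authors' counting is not stated, so reads of these genes may not be separated. Mt2 is likewise overlapped on the opposite strand by the antisense gene Gm45774, which ends 156 bases before the 3′ end of Mt2.

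Of the zinc importers in the group, Slc39a14 differed most. Its normalized read count was 49.0 in normal control and 33.1 with exercise alone, against 393 with the tumor alone and 238 with both, so that both tumor libraries lay above both others. The log2 fold change with the tumor was 2.98 in sedentary mice (2.56 to 3.48) and 2.81 in exercised mice (2.36 to 3.36), about 7.88-fold and 7.02-fold. With exercise it was -0.72 in tumor-bearing mice (-0.97 to -0.48) and -0.55 in tumor-free mice (-1.20 to 0.08), the latter resting on 46 and 41 reads. The sums of neutrophil and of macrophage markers, given further below, were also higher in both tumor libraries. The part of these cells in the Slc39a14 result was not tested.

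Slc39a10, an importer of the plasma membrane whose gene is known to be repressed by MTF1 when zinc is plentiful, had its lowest value in cancer control. The normalized read count was 142.5 in normal control and 102 with exercise alone, against 54.7 with the tumor alone and 131 with both. The log2 fold change was -1.37 with the tumor in sedentary mice (-1.88 to -0.91). With exercise, among tumor-bearing mice, it was 1.25 (0.78 to 1.76). In exercised mice the tumor difference was 0.36 (-0.01 to 0.73), an interval that includes 0. The 2 libraries compared there, normal exercise and cancer exercise, thus did not differ beyond counting error. The 7 fat cell markers had the same order of libraries as Slc39a10, at 3194 RPM in normal control and 2009 with exercise alone, against 1102 with the tumor alone and 2231 with both. With the tumor in sedentary mice 7 of the 7 were called lower, against 24.2% of all genes, and so were 7 of the 9 fibroblast markers. In each tumor library 1 fat cell marker was at 0 reads. The part of the fat cell markers in the Slc39a10 result was not tested.

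Slc30a1, the exporter of the plasma membrane and a target of MTF1, had the mirrored order. Its normalized read count was 246 in normal control and 393 with exercise alone, against 545 with the tumor alone and 305 with both, highest where Slc39a10 was lowest. The tumor difference in sedentary mice was 1.15 (0.92 to 1.38), past 2-fold. In exercised mice it was -0.36 (-0.58 to -0.15), in the other direction. The exercise difference was 0.68 in tumor-free mice (0.45 to 0.91) and -0.83 in tumor-bearing mice (-1.05 to -0.62), neither past 2-fold.

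Slc30a2, an exporter into vesicles, was highest in normal control. The normalized read count was 429 in normal control and 160.5 with exercise alone, against 239.9 with the tumor alone and 239 with both. With exercise in tumor-free mice the log2 fold change was -1.41 (-1.67 to -1.17), the only call among the 8 genes in that comparison. The tumor difference was -0.84 in sedentary mice (-1.08 to -0.60) and 0.57 in exercised mice (0.29 to 0.86), neither past 2-fold, and the difference between the tumor libraries was -0.003 (-0.28 to 0.27).

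Counted over the group, 5 of the 8 genes were called with the tumor in sedentary mice, where Mt1, Mt2, Slc39a14 and Slc30a1 were higher and Slc39a10 lower. In the same comparison 45.1% of all genes that met the minimum were called. With the tumor in exercised mice 3 of 8 were called, Mt1, Mt2 and Slc39a14, all higher, against 30.3% of all genes. Exercise in tumor-bearing mice gave 1 call of 8, Slc39a10, against 30.6%, and exercise in tumor-free mice gave 1 of 8, Slc30a2, against 21.5%. The genes were picked with these comparisons known, so nothing is read from the counts. All 8 genes met the minimum in every comparison.

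**Figure D3:**
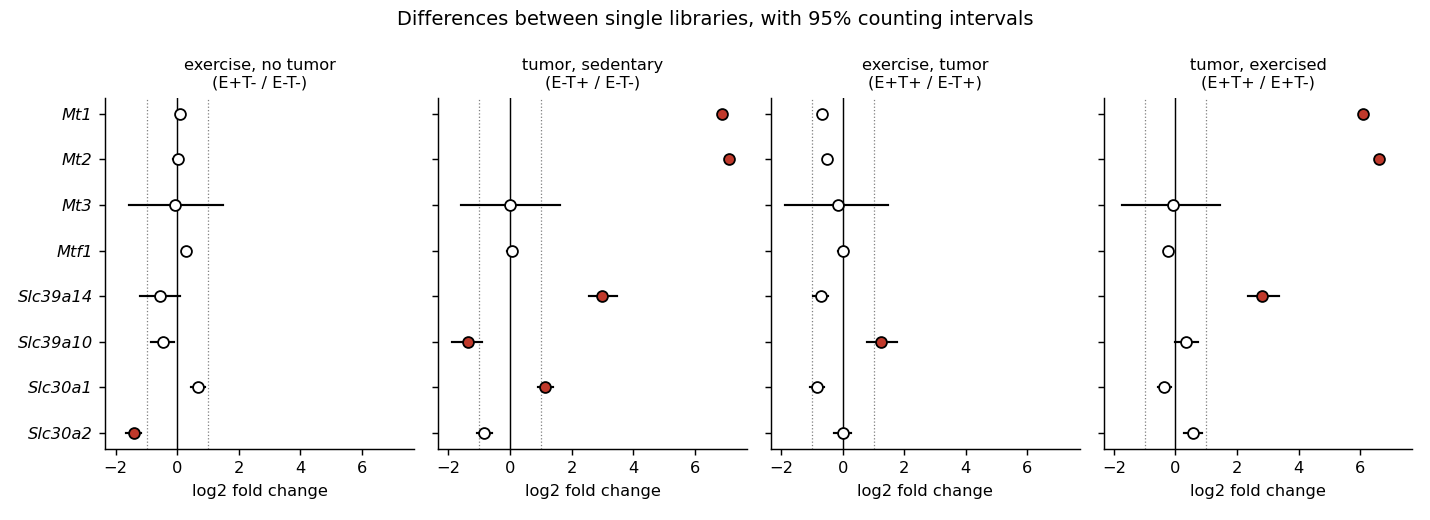
Log2 fold change of the 8 genes in the 4 comparisons (horizontal axis) with 95% counting intervals (lines). Filled points passed 2-fold, marked by dotted lines; Mt1, Mt2 and Slc39a14 lie to the right in both tumor comparisons, and Slc30a1 and Slc39a10 lie on opposite sides of 0 in the tumor comparison of sedentary mice.

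The promoters of Mt1, Mt2 and Slc30a1 are printed because MTF1 acts on these genes through metal response elements. The core was searched as TGCACNC and TGCGCNC on both strands, in RefSeq windows of 300 bases (GRCm38.p6) that run from 250 bases before to 50 after the annotated transcription start. A window was found for 7 of the 8 genes, and Slc39a14 had none. Each promoter below is shown 5′ to 3′ on the plus strand, from 250 bases before the start to 30 after it, with matches of the core in either direction in capitals, at chr8:94178839-94179118 for Mt1, chr8:94172368-94172647 for Mt2 and chr1:191906531-191906810 for Slc30a1.
Mt1 promoter: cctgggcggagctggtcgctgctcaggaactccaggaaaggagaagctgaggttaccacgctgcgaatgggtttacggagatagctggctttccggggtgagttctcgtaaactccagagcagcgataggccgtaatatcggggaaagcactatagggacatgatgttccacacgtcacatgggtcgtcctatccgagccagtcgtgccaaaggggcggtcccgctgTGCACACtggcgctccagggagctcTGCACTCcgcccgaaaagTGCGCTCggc
Mt2 promoter: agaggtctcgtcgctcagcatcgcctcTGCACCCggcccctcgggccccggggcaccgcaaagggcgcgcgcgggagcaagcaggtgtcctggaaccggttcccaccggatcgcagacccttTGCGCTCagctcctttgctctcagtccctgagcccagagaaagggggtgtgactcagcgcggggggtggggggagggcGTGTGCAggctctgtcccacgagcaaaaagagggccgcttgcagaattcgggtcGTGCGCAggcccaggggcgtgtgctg
Slc30a1 promoter: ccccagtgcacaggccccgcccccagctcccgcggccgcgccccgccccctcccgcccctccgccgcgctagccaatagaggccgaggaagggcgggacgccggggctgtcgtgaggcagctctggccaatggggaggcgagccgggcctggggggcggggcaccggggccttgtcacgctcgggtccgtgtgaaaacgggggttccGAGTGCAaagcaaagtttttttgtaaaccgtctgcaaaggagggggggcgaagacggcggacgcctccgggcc
The windows held 4 matches for Mt2, 3 for Mt1, 2 each for Slc30a1 and Slc30a2, and 1 for Mt3. The windows of Mtf1 and Slc39a10 held none, which says only that these letters are not in these windows. Of all 32851 windows, 25.7% held at least 1 match, 1.97% at least 3 and 0.518% at least 4. In Mt1 the matches began 23 bases before the start and 3 and 21 bases after it, and in Mt2 they began 223, 128 and 50 bases before the start and 5 after it. A second match of Slc30a1 begins at base 31 after the start, just past the part shown. The positions and the number of matches in a window depend on the annotated start. GENCODE sets it at 94179082 for Mt1 and 94172664 for Mt2, against 94179089 and 94172618 in RefSeq. Seen from the GENCODE start of Mt2, the match placed 5 bases after the RefSeq start also lies before the start.

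**Figure D4:**
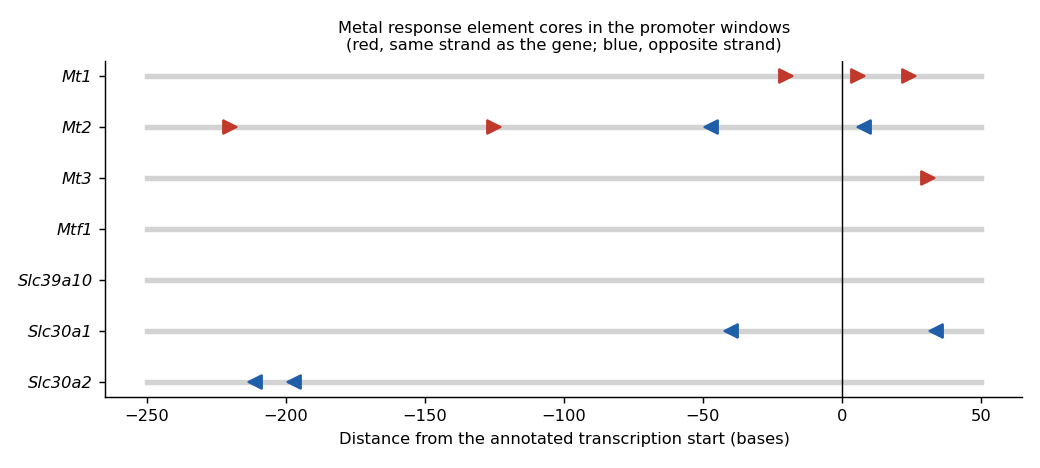
Position of metal response element cores, in bases from the RefSeq transcription start, in the promoter windows of the 7 genes that had one (grey bars, 300 bases). Red marks lie on the strand of the gene and blue marks on the opposite strand; Mt2 has 4 and Mt1 3, and Mtf1 and Slc39a10 have none in any window.

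The whole Slc30a and Slc39a families were set beside these genes. All 24 family members were in the files, 10 Slc30a and 14 Slc39a genes, and 22 had reads in at least 1 library, with Slc30a3 and Slc30a8 at 0 in all. In the tumor comparison of sedentary mice 4 were higher and 3 lower of 20 that met the minimum, with a median log2 fold change of -0.06 against -0.04 over all genes. In exercised mice 3 were higher and 3 lower of 20, with a median of -0.05 against -0.03. Exercise gave 2 higher and 3 lower of 21 in tumor-free mice (median -0.03 against -0.01) and 2 higher and 2 lower of 19 in tumor-bearing mice (median -0.03 against 0.01). The backgrounds of calls are those given above, and nothing particular to the families is read from the counts, which include Slc39a14, Slc39a10, Slc30a1 and Slc30a2.

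The summed reads of the Slc39a genes were 218 RPM in normal control and 240.3 with exercise alone, against 260.2 with the tumor alone and 240.6 with both. Those of the Slc30a genes were 167, 185, 196 and 136 in the same order. Slc39a1 and Slc39a7, importers found in most tissues at the plasma membrane and in the secretory pathway, were the most abundant importers, at 72.2 to 85.1 and 51.9 to 82.3 RPM. Slc39a14 stood at 4.08 and 3.10 RPM without a tumor and at 34.5 and 20.0 with one. In cancer control it was thus the importer with the highest level after Slc39a7 and Slc39a1.

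Outside the 8 genes, the largest tumor differences in these families came from genes with few reads. Slc39a8, a ZIP importer closely related to Slc39a14, had 0 reads in normal control and 6 with exercise alone, against 25 with the tumor alone and 11 with both. It was at least 8.39-fold higher in cancer control than in normal control with 0 reads set to the floor of 3. Its log2 fold change of 1.17 with the tumor in exercised mice had an interval that included 0 (-0.27 to 3.01). Slc30a4, an exporter into vesicles and the most abundant Slc30a gene on average, had 379 and 732 reads without a tumor and 758 and 380 with one, each pair without and with exercise. Its tumor difference was 1.01 in sedentary mice (0.83 to 1.19) and -0.53 in exercised mice (-0.71 to -0.35), the same order of libraries as Slc30a1.

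With the tumor in exercised mice, Slc39a3 differed by -1.36 (-1.84 to -0.93) and Slc39a5 by -1.004 (-1.74 to -0.37). Slc30a10, Slc39a2 and Slc39a12 were called on at most 7 reads in any library and are not described further. Of the other transporters, 9 of 17 genes with a promoter window held at least 1 match of the core, and Slc30a4 and Slc30a10 held 3 each. In Slc30a10 a match on each strand fell on overlapping bases, so its matches are not all separate sites. The 25.7% given above is a share of windows and not of genes. Some of these genes have more than 1 window, so the shares are not alike and nothing is read from them.

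**Figure D5:**
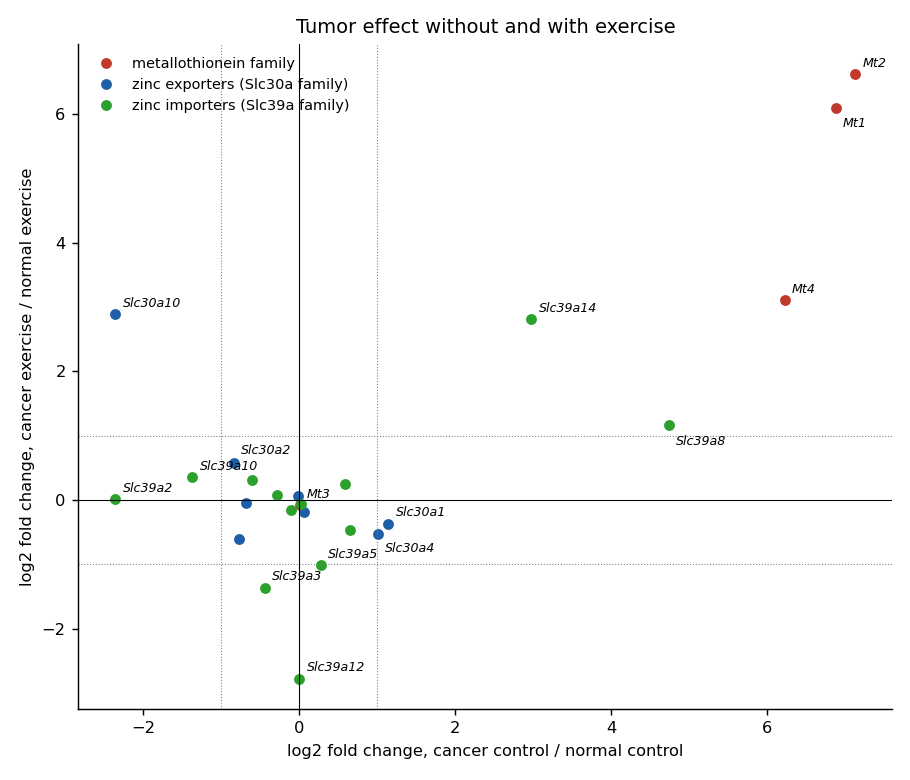
Log2 fold change with the tumor in sedentary mice (horizontal) and in exercised mice (vertical) for the metallothionein, Slc30a and Slc39a genes that met the minimum in at least 1 of these comparisons, which share no library. Dotted lines mark 2-fold. Mt1, Mt2, Mt4, Slc39a14 and Slc39a8 lie past it upward on both axes, and Slc30a10, with at most 6 reads, lies past it in opposite directions. Slc39a10, Slc30a1, Slc30a4 and Slc39a2, the last with at most 4 reads, lie past it on the horizontal axis only.

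Other genes described as MTF1 targets did not move by the same amounts. Gclc, which makes the rate-limiting subunit of glutathione synthesis, had 77 and 183 reads without a tumor and 207 and 136 with one, each pair without and with exercise. It was higher by 1.43 with the tumor in sedentary mice and differed by -0.01 with the tumor in exercised mice. Sepw1, a small selenoprotein of muscle, differed by -0.78 and -0.17 in these comparisons, Ndrg1 by 0.33 and -0.04, and Csrp1 by -0.11 and 0.01. Over the list of 9 such genes, 5 were called with the tumor in sedentary mice and 2 in exercised mice, and 4 of those 5 calls belong to the 8 genes described above. Over all genes 45.1% and 30.3% were called.

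Genes that respond to 2 other known inducers of metallothioneins were also counted. Over all genes 20.85% were higher and 24.2% lower with the tumor in sedentary mice, and 13.9% and 16.3% in exercised mice. Of 13 glucocorticoid response genes, 9 were higher and 0 lower with the tumor in sedentary mice, and 9 higher and 0 lower with it in exercised mice, with medians of 1.31 and 2.63 (Cebpd is also in the next list). Ddit4, an inhibitor of mTORC1, was higher by 5.60 and 4.37, and Per1, a clock gene with a glucocorticoid response element, by 3.93 and 2.63. Of 19 IL-6 and STAT3 response genes, 14 were higher and 0 lower with the tumor in sedentary mice, and 13 higher and 0 lower of 18 in exercised mice, with medians of 2.41 and 2.15. Saa1, an acute phase protein, had 3 and 0 reads without a tumor and 848 and 191 with one, reads that it may share with its close relative Saa2. With exercise in tumor-bearing mice 4 of the 13 glucocorticoid response genes and 8 of the 19 IL-6 response genes were lower and none of either list was higher, against 15.1% lower and 15.6% higher over all genes. Receptor genes such as Il6ra and Osmr and the factor Stat3 are also in the IL-6 list. Both lists were chosen with earlier results of these data known, so nothing is read from their counts. The part of these responses in the metallothionein values was not tested.

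Metallothioneins are also abundant in liver and in white blood cells, so markers of other cells were read beside them. The 9 neutrophil markers in the files took 6.65 and 15.2 RPM without a tumor and 233 and 157 with one, each pair without and with exercise, and 5, 4, 2 and 3 of them were at 0 reads. Most of these reads in cancer control came from S100a8, with 16, 88, 1918 and 885 over the libraries in that order. S100a9 (47, 93, 415 and 642 reads) and Retnlg (0, 3, 92 and 175) were highest in cancer exercise instead. The 10 macrophage markers took 373, 409.8, 677 and 602 RPM in the same order, none at 0. Cd68 (87, 117, 957 and 295 reads) and C1qa (1064, 1350, 2476 and 2015) were highest in cancer control. Csf1r (798, 1237, 491 and 726) and Lyz2 (378, 403, 312 and 579) were lowest there. With the tumor in sedentary mice 6 neutrophil and 5 macrophage markers were called higher and 0 lower, against 20.85% and 24.2% of all genes. In exercised mice 4 and 2 were higher and 0 lower, against 13.9% and 16.3%. The 11 hepatocyte markers took 279, 82.4, 220.0 and 152 RPM, and Alb had 351, 124, 555 and 71 reads. In normal control most of these marker reads came from Cyp2e1 and Trf, with 1414 and 996, against 390 and 405 in cancer control. With the tumor in sedentary mice 7 of the 11 were called higher and 2 lower, against 20.85% and 24.2% of all genes. In exercised mice 2 were higher and 1 lower, against 13.9% and 16.3%. With exercise in tumor-bearing mice 1 was higher and 9 lower, against 15.6% and 15.1%. Mt1 and Mt2 took 13324 and 8938 RPM in cancer control and 7935 and 6014 in cancer exercise. In whole muscle a change in the number of cells of a type and a change in RNA per cell cannot be told apart, and the part of these cells in the result was not tested.

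The genes whose pattern was most like that of Mt2 were sought by the root mean square difference of the 3 log2 fold changes against normal control, over 4 libraries and 13197 genes that reached a normalized read count of 16. Mt1 differed from Mt2 by 0.29. Outside the 8 genes the nearest included Krt20 at 0.54, Cd300lf at 0.91, BC100530 at 1.002 and Retnlg at 1.12. Each of these had 0 reads in normal control and at most 177 reads in any library, so their fold changes depend on the pseudocount of 1. For Slc39a14 the nearest were Pitx3 at 0.08, Abra at 0.12, Frem2 at 0.17, Ctla2a at 0.17 and Stx11 at 0.27. Abra, a muscle protein that binds actin, had 1261 and 1194 reads without a tumor and 10639 and 5296 with one, each pair without and with exercise. Ctla2a, which resembles the propeptide of cathepsins, had 459, 456, 3082 and 2008 reads in that order, whereas Pitx3, Frem2 and Stx11 had at most 92 reads in any library.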

How the data were processed

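Gastrocnemius RNA was sequenced in 4 libraries, 1 per group, and groups were taken from the sample titles. According to the methods and the processing notes, the authors mapped the reads to build mm10 using Bowtie2, took gene counts from bedtools and quantile normalized these in edgeR. Versions, the annotation and the use of strand and of multiply matching reads were not given in the sources used here. The values they deposited are on a log2 scale, after 1 was added to each normalized read count. Symbols were used as deposited, and 0 of the 8 genes shared a symbol with another row.

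Fold changes are differences of the deposited log2 values, whose pseudocount of 1 makes the changes of low genes look smaller. The call threshold was 2-fold, with 4 or more normalized reads in either library. The 2-fold limit and the limit of 4 follow the study, and the condition that either library may reach the minimum was set here. Reads were rebuilt by fitting 1 scaling factor per library and 1 dispersion (0.339) of a negative binomial quantile adjustment, and 100% of values came from whole reads within 0.0006 in log2. From 93.8% to 95.5% of the values per library fit a single read count. The procedure was tested on simulated data. Counting intervals are 95% Clopper-Pearson intervals of read shares. At most 3 reads were set to a floor of 3, a share of 2.27e-05% to 2.82e-05% of a library. Reads carry no stated molecular identifiers, so neither intervals nor floors cover more than counting error. With 1 library per group no difference has a replicate check, and no test over samples was run.

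The 8 genes, the gene lists and the rules were chosen with earlier results of these data known. Named genes are the 8, Mt4, transporters called in a tumor comparison (at most 10), up to 4 genes per other list by the larger tumor difference among genes that reached a normalized read count of 16, and the 5 genes most like Mt2 and Slc39a14, of which 1 is not reported here. Krt5, Alb, Slc39a1, Slc39a7, Slc39a13, genes at 0 and the contractile genes were named after their values were seen. The same holds for Tspan8, Cdh1, Krt8, Krt19, Cyp2e1, Trf, S100a8, S100a9, Cd68, C1qa, Csf1r, Lyz2, Il6ra, Osmr and Stat3. Promoters come from RefSeq and gene positions from GENCODE M21. The alternatives were total count and TMM scaling, a pseudocount of 0 or 4, a minimum of 4 in both libraries, of 16 or none at all, and a 4-fold threshold. Python 3.11.15, numpy 2.4.6, scipy 1.17.1 and pandas 2.3.3 were used.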

Additional observations from a re-analysis of the deposited data

Results flagged for a closer look

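In 4 zinc transporter genes exercise moved the value one way in tumor-free mice and the other way in tumor-bearing mice, with both counting intervals clear of 0. The share of all genes that reverse in this way was not computed, so nothing particular to zinc transporters is read from the 4. With 1 library per group the difference between the exercise effects was not tested. It is given as the log2 exercise effect with a tumor less the one without. For Slc39a10 the difference was 1.72, from -0.48 without and 1.25 with a tumor. For Slc30a1 it was -1.51, from 0.68 and -0.83. For Slc30a4 it was -1.53, from 0.56 and -0.98. For Slc39a13, an importer of the secretory pathway, it was 0.906, from -0.36 and 0.55.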

How the results depend on the processing

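Of 64 recomputed counts of called genes, 53 were within a factor of 1.5 of the count reported and 11 were outside it. For the 8 genes only the 4-fold threshold moved the count, to 0 with exercise in tumor-free mice, 3 with the tumor in sedentary mice (Mt1, Mt2 and Slc39a14) and 0 with exercise in tumor-bearing mice. For the 24 zinc transporters the 4-fold threshold gave 4 with the tumor in sedentary mice, 1 with exercise in tumor-bearing mice and 3 with the tumor in exercised mice. A minimum of 4 in both libraries gave 1 with exercise in tumor-free mice and 4 with the tumor in sedentary mice. A minimum of 16 gave 1 with exercise in tumor-free mice and 3 with the tumor in exercised mice. A pseudocount of 0 gave 3 with exercise in tumor-free mice. It leaves out a gene only where the normalized value is exactly 0. Some genes at 0 reads have small values above 0 and stayed in, such as Slc39a8 in normal control (0.0367). TMM factors differed from the fitted scaling factors by at most 0.0073%, so agreement of counts and fold changes under TMM scaling was fixed in advance. Of 128 recomputed fold changes of the 8 genes, these included, 0 changed sign in a called gene. Of the same 128, 120 stayed inside the counting interval and 8 left it, all under total count scaling. That scaling shifted the median of all genes by 0.16 in log2 units with exercise in tumor-free mice and by -0.15 with the tumor in exercised mice. There Mt1 differed by 0.26 and 5.94, against the reported 0.10 and 6.10. No paired analysis was possible because each group had 1 library, and leaving out a library removes the 2 comparisons that use it and leaves the other 2 as they are. At this depth a 2-fold difference of Mt3, which had at most 10 reads in any library, was not detectable.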

Other observations

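Copper and iron genes were counted beside the zinc genes. Over all genes 45.1% were called with the tumor in sedentary mice and 30.3% in exercised mice. The shares of the lists below called in either direction are near these or lower. By direction, 20.85% of all genes were higher and 24.2% lower in sedentary mice, and 13.9% and 16.3% in exercised mice. Of 12 copper handling genes that met the minimum, 1 was higher and 3 lower with the tumor in sedentary mice, and 1 was higher with it in exercised mice. Sod1, which needs copper and zinc, was higher by 1.43 in sedentary and by 0.13 in exercised mice. Commd1 differed by -1.79 and -0.86, Slc31a2 by -1.58 and -0.37 and Cox11 by -1.22 and -0.13. Of 10 iron handling genes, 2 were higher and 2 lower with the tumor in sedentary mice, and 1 higher and 2 lower in exercised mice. Tfrc, the transferrin receptor that takes up iron, had 1250 and 2155 reads without a tumor and 118 and 147 with one, each pair without and with exercise, and differed by -3.38 and -3.45 with the tumor. Hmox1, which breaks down heme, was higher by 3.29 and 1.37. Of 15 antioxidant genes, which share Sod1, Hmox1 and Gclc with the other lists, 6 were higher and 0 lower with the tumor in sedentary mice, and 1 higher and 1 lower in exercised mice. Gsr, which regenerates glutathione, was higher by 1.43 in sedentary mice and differed by 0.10 in exercised mice.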
